A study of Homo sapiens with 12 samples.

Results

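The 8 genes described here encode interleukin-1 (IL-1) family ligands, their natural inhibitors and their receptors. They are IL1A, IL1B, IL1RN, IL18, IL18BP, IL1R1, IL1R2 and IL1RAP, taken by symbol as 8 of the 57992 gene IDs in a count table. All 8 passed the filter on low counts that left 16022 genes for testing. The table held mRNA sequencing of 12 libraries of induced microglia-like cells (iMGLs), a cultured model of brain macrophages derived here from H1, a human embryonic stem cell line. Cells in which the transcription factor gene MEF2C was knocked out (KO) were given lipopolysaccharide (LPS), a bacterial cell wall component sensed through TLR4, together with BMS265246 in the KO LPS BMS group (2 libraries). The KO LPS group (2 libraries) received LPS without the compound, the WT LPS group (2 libraries) was its unedited counterpart, and the KO and WT groups (3 libraries each) received neither agent. The series title describes BMS265246 as acting on CDK2, a cell cycle kinase. Not given in the sources used here are the kind of edit, the number of KO clones, and the dose and duration of LPS and BMS265246. The labels call the libraries biological replicates and do not say whether they came from separate differentiations, so p-values measure the spread between these libraries. The compound was given neither to WT cells nor in the absence of LPS.

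IL-1α (IL1A) and IL-1β (IL1B) bind IL1R1, which then recruits the accessory protein IL1RAP and signals through MYD88 and IRAK kinases to NF-kB. The IL-1 receptor antagonist (IL1RN) occupies IL1R1 without recruiting IL1RAP, and IL1R2 is a decoy receptor that binds ligand and lacks a signalling domain. IL-18 (IL18) acts through IL18R1 and IL18RAP and is neutralised in solution by IL18BP. In microglia, IL-1β is made on stimulation as a precursor, which caspase-1 cleaves in the inflammasome, as it does the IL-18 precursor. The present values are RNA levels and say nothing of cleavage or secretion.

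By GRCh38 and GENCODE release 29, 5 of the genes lie on chromosome 2, in a ligand cluster and a receptor cluster. IL1A (ENSG00000115008, minus strand) lies at chr2:112773915-112784590. IL1B (ENSG00000125538, minus strand) follows at chr2:112829751-112836903, after a gap of 45.2 kb. IL1RN (ENSG00000136689, plus strand) lies at chr2:113107214-113134016, a further 270.3 kb on. The receptor genes IL1R2 (ENSG00000115590, plus strand, chr2:101991844-102028544) and IL1R1 (ENSG00000115594, plus strand, chr2:102064544-102179874) are 36.0 kb apart on the same chromosome. IL18 (ENSG00000150782, minus strand) lies at chr11:112143251-112164117, and IL18BP (ENSG00000137496, plus strand) lies on the same chromosome at chr11:71998541-72005715. IL1RAP (ENSG00000196083, plus strand) lies at chr3:190514051-190659750.

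RefSeq promoter windows (GRCh38.p14; 250 bases before to 50 bases from an annotated start on) were matched by symbol for 7 of the 8 genes, with 17 windows in all. One each is shown for IL1A, IL1B and IL1RN, the genes with the largest LPS response of the 8, and for IL18BP, the one that LPS lowered. Capitals mark matches, on either strand and allowing overlaps, to 6 motifs. Those of NF-kB (GGGNNNNNCC) occur in 58.7% of all 35116 windows, those of AP-1 (TGANTCA) in 7.71% and those of the myeloid factor PU.1 (GAGGAA) in 27.9%. Those of MEF2 (CTANNNNTAG) occur in 2.73%, those of the interferon response element ISRE (GAAANNGAAA) in 3.57% and those of a TATA box (TATAAA) in 11.5%. IL1B has 1 window, IL1A has 2, IL1RN 3 and IL18BP 4, and those printed were picked with their matches in view. They are IL1A chr2:112784444-112784743 (minus strand), IL1B chr2:112836730-112837029 (minus strand), IL1RN chr2:113127348-113127647 (plus strand) and IL18BP chr11:71999367-71999666 (plus strand).
IL1A: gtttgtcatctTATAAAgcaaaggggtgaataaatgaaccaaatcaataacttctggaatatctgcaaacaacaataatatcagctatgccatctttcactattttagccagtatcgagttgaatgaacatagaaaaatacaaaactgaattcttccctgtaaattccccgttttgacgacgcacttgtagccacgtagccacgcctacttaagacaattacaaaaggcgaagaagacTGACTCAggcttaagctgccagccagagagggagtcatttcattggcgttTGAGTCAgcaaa
IL1B: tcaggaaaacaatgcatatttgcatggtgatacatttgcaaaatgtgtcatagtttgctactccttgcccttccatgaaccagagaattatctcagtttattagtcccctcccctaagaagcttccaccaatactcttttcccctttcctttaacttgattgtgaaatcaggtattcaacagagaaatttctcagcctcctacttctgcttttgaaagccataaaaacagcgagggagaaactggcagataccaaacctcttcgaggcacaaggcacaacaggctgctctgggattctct
IL1RN: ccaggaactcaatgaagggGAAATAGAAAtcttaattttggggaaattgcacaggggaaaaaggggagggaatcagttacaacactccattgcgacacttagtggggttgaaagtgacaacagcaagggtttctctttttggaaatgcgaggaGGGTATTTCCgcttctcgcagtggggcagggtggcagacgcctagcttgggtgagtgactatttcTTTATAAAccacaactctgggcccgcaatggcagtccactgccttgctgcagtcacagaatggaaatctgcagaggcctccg
IL18BP: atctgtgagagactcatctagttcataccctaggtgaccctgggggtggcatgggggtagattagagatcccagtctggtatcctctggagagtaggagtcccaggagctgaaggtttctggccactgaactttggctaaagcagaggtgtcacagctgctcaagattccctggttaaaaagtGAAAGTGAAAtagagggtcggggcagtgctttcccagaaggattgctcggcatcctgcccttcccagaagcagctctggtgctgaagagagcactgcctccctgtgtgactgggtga
The IL1A window shown holds AP-1 matches that begin at -12 and at 39 relative to the start, and a TATA box at -239. None of the 6 motifs is found in the IL1B window. The IL1RN window shown holds an NF-kB match at -97, an ISRE at -231 and overlapping TATA boxes at -32 and -30 on opposite strands. The IL18BP window shown holds an ISRE at -67. The second IL1A window holds the same AP-1 letters, at -105 and -55 from its start. Of the other IL1RN windows, one holds 4 NF-kB matches and 1 of AP-1, and the other overlaps the one shown. The other IL18BP windows hold PU.1 matches, with 1 NF-kB match in one of them. No MEF2 match was found in any of the 17 windows. These matches describe letters and are not evidence of binding.

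Library totals ranged from 13888283 to 17639136 counts, and levels are given as CPM, counts brought to one library size with TMM factors. A count of 0 allows up to 3 counts, or 0.154 to 0.236 CPM, and covers counting error only. Fold changes and p-values come from edgeR's quasi-likelihood F test over all 12 libraries, with Benjamini-Hochberg adjustment over the 16022 genes. A gene was called at an adjusted p under 0.05. Standard errors (SE) were derived from that test, as the absolute log2 fold change divided by the square root of F. MEF2C itself was still read at 129 to 136 CPM in KO cells, against 177 to 193 CPM in WT cells (log2 fold change -0.47 ± 0.05, adjusted p = 4.00e-07), and these RNA levels do not show what protein is made. All 10 microglial marker genes had counts in KO LPS BMS, KO and WT cells and all but SALL1 did in KO LPS and WT LPS cells, but SALL1 had at most 2 counts a library. Their summed level was 3992 to 4708 CPM over the 12 libraries, most of it from CSF1R, C1QA and SPI1. P2RY12, TREM2, GPR34 and CSF1R were lower in both WT LPS than in all WT libraries, and CX3CR1 was higher. P2RY12 averaged 15.1 CPM in WT and 1.81 CPM in WT LPS cells, and TREM2 265 and 107 CPM. CX3CR1, CSF1R, P2RY12 and GPR34 were lower in all KO than in all WT libraries, and TREM2 was higher. CX3CR1 averaged 55.9 CPM in KO and 79.9 CPM in WT cells. CX3CR1, CSF1R and GPR34 were lower in both KO LPS BMS than in both KO LPS libraries. P2RY12, TMEM119, AIF1, TREM2 and C1QA were higher there. The part of these markers in the results below was not tested. Markers of pluripotent cells summed to at most 0.618 CPM. Scaling by library size alone moved the median of all genes by -0.34 in KO LPS BMS vs KO, -0.25 in KO LPS vs KO and -0.29 in WT LPS vs WT on the log2 scale. The share of all calls that were higher was then 26.1%, against 48.4% with TMM, for KO LPS BMS vs KO. It was 25.5%, against 54.7%, for KO LPS vs KO and 26.7%, against 48.4%, for WT LPS vs WT. For the genotype by LPS interaction it was 65.3% with library size alone, 43.5% with DESeq2's size factors and 42.4% with only the groups compared, against 53.5%. In bulk libraries, fewer cells of a type and less RNA per cell cannot be told apart.

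LPS raised both IL-1 agonists by more than 4 log2 units in every group that received it, and the KO LPS and WT LPS libraries overlapped. IL1B, the secreted inflammatory cytokine, stood at 3477 and 3357 CPM in KO LPS BMS cells, 4689 and 4612 CPM in KO LPS cells and 4854 and 4573 CPM in WT LPS cells. It stood at 130.3, 118 and 117 CPM in KO cells and at 118, 121 and 108 CPM in WT cells. All 6 LPS libraries were far above all 6 others, the libraries with the compound were the lowest of the 6, and the WT LPS pair enclosed the KO LPS pair. IL1B was 5.26 ± 0.06 log2 units higher in KO LPS than in KO cells (adjusted p = 6.53e-25) and 5.35 ± 0.06 higher in WT LPS than in WT cells (adjusted p = 4.46e-25). KO LPS BMS cells were 4.81 ± 0.06 above KO cells (adjusted p = 4.49e-24). By CPM per kilobase of exon, IL1B had rank 22 of 15966 tested genes with an exon length in KO LPS BMS cells, rank 10 in KO LPS cells, rank 14 in WT LPS cells, rank 902 in KO cells and rank 983 in WT cells.

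IL1A, whose product is active also as a precursor and serves as an alarm signal, had 402 and 434 CPM in KO LPS BMS cells, 741 and 677 CPM in KO LPS cells and 637 and 690 CPM in WT LPS cells. Without LPS it had 22.5, 21.9 and 21.8 CPM in KO cells and 22.0, 23.1 and 19.4 CPM in WT cells. The order of the groups was that of IL1B, with KO LPS and WT LPS overlapping at the top and KO and WT overlapping at the bottom. The LPS rise was 5.01 ± 0.07 log2 units in KO cells (adjusted p = 2.43e-23) and 4.95 ± 0.07 in WT cells (adjusted p = 2.01e-23), and KO LPS BMS cells were 4.24 ± 0.07 above KO cells (adjusted p = 3.73e-22). Per kilobase of exon, the level of IL1A averaged 334 CPM in KO LPS cells and that of IL1B 1502 CPM in the same cells.

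The agonists did not pass the test between genotypes, and the intervals limit how far they could differ. Between KO and WT cells, IL1A differed by 0.037 log2 units (95% interval -0.10 to 0.18) and IL1B by 0.076 (-0.024 to 0.18). Between KO LPS and WT LPS cells, IL1A differed by 0.096 (-0.035 to 0.23) and IL1B by -0.019 (-0.13 to 0.096). The genotype by LPS interaction, the LPS change in KO cells minus that in WT cells, was 0.060 for IL1A (-0.13 to 0.25) and -0.095 for IL1B (-0.25 to 0.058). With the compound both agonists fell: IL1A changed by -0.76 ± 0.07 log2 units in KO LPS BMS relative to KO LPS cells (adjusted p = 7.29e-09) and IL1B by -0.44 ± 0.06 (adjusted p = 2.36e-06). Both falls kept their direction and call under each of the 18 alternatives run. As a share of the LPS-induced rise in CPM over KO cells, 57.6% of the IL1A rise was left (52.9% to 62.9% over the 4 pairings of a KO LPS BMS with a KO LPS library) and 72.8% of the IL1B rise (70.9% to 74.7%).

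**Figure D1:**
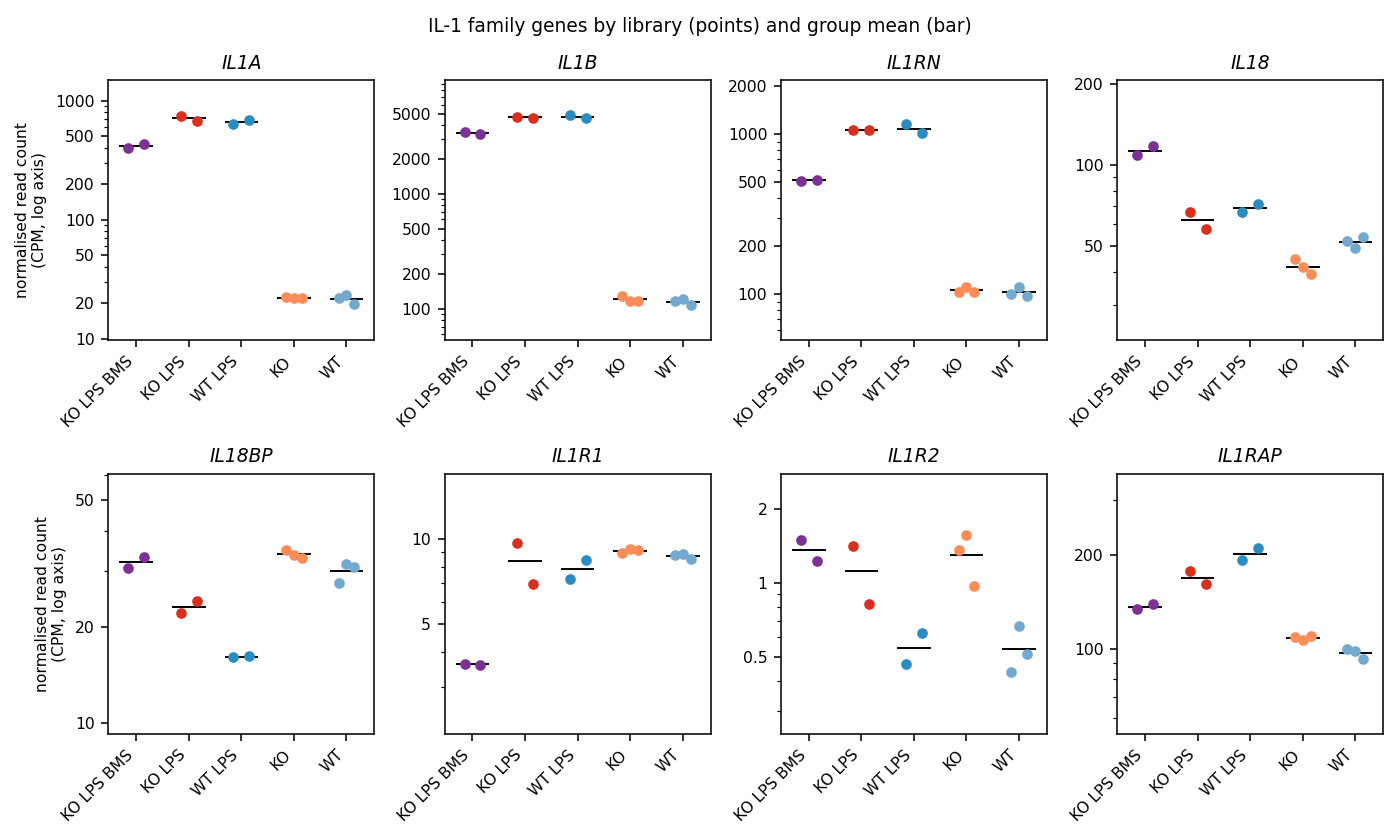
Normalised read counts (CPM, log axis) of the 8 genes in each of the 12 libraries, with points for libraries and bars for group means. IL1A, IL1B and IL1RN separate the 6 LPS libraries from the others, IL1R1 is lowest in the KO LPS BMS libraries at 3.62 and 3.60 CPM, and IL18 is highest there at 108 and 117 CPM.

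The receptor antagonist rose with LPS as well, with a smaller fold change than the agonists, and had the lowest fold change of these 3 genes with the compound. IL1RN had 512 and 519 CPM in KO LPS BMS cells, 1068 and 1058 CPM in KO LPS cells and 1153 and 1016 CPM in WT LPS cells. Its levels were 103, 111 and 103 CPM in KO cells and 101, 110.4 and 97.4 CPM in WT cells. The compound's pair lay between the other LPS libraries and the libraries without LPS, overlapping neither. IL1RN fell by 1.04 ± 0.07 log2 units in KO LPS BMS relative to KO LPS cells (adjusted p = 4.02e-11). It was 3.33 ± 0.06 higher in KO LPS than in KO cells (adjusted p = 3.15e-21) and 3.40 ± 0.06 higher in WT LPS than in WT cells (adjusted p = 1.54e-21). Of the LPS-induced rise 42.8% was left with the compound (42.2% to 43.4%), and this range does not overlap that of IL1A or IL1B. The pairings behind these ranges share libraries and keep the KO mean fixed, so the ranges are not intervals and no test between the genes was made. Between genotypes IL1RN differed by 0.039 log2 units without LPS (-0.072 to 0.15) and by -0.028 with LPS (-0.16 to 0.099).

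Ratios of CPM within a library, which need no scaling between libraries, put agonist and antagonist side by side. They are ratios of counts and not per length, and compare libraries, not the 2 genes. Each ratio given here, linear or log2, has 0.25 CPM added to both genes. IL1B was 6.79 and 6.47 times IL1RN in KO LPS BMS cells, 4.39 and 4.36 times in KO LPS cells, 4.21 and 4.50 times in WT LPS cells, 1.26, 1.06 and 1.14 times in KO cells and 1.17, 1.09 and 1.10 times in WT cells. The 2 libraries with the compound had the highest values of the 12. On the log2 scale, with 0.25 CPM added, the ratio was 0.60 higher in KO LPS BMS than in KO LPS cells and 1.93 higher in KO LPS than in KO cells. An exact 2-sided permutation test of 2 against 2 libraries gave p = 0.333333 for the first difference, the smallest it can give, and p = 0.2 for the second, again the smallest for 2 against 3 (0.444444 and 0.4 after Benjamini-Hochberg adjustment over 24 such tests). IL1A to IL1RN followed the same order, with 0.786 and 0.836 in KO LPS BMS cells, 0.694 and 0.640 in KO LPS cells and 0.553 and 0.679 in WT LPS cells. Its ratio was 0.220, 0.199 and 0.214 in KO cells and 0.220, 0.211 and 0.201 in WT cells, where the groups overlapped. The permutation test cannot reach 0.05 in designs of this size, and no test with a pooled spread was made of the ratios.

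**Figure D2:**
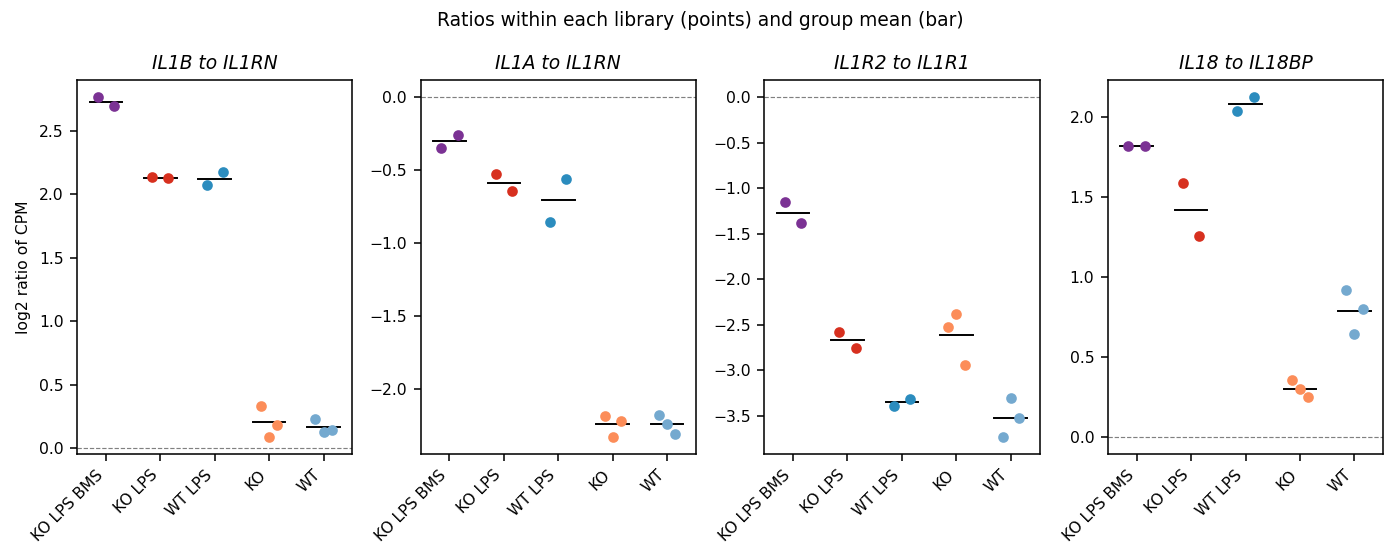
Log2 ratio of CPM within each library for 4 pairs of ligand or decoy and its counterpart, with points for libraries and bars for group means (0.25 CPM added to each value). IL1B to IL1RN and IL1R2 to IL1R1 are highest in the KO LPS BMS libraries, and IL18 to IL18BP is lower in KO than in WT libraries.

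IL18 was the only one of the 8 genes called lower in KO than in WT cells, and it was higher with the compound. IL18, made by macrophages without stimulation, had 108 and 117 CPM in KO LPS BMS cells, 66.9 and 57.7 CPM in KO LPS cells and 66.5 and 71.4 CPM in WT LPS cells. It had 44.6, 41.4 and 39.1 CPM in KO cells and 51.9, 49.0 and 53.7 CPM in WT cells. The KO libraries were all below the WT libraries, the KO LPS and WT LPS pairs overlapped, and the compound's pair was the highest of the 5 groups. The log2 fold change of IL18 was -0.31 ± 0.07 in KO vs WT (adjusted p = 0.00237) and -0.15 in KO LPS vs WT LPS, which was not called (95% interval -0.31 to 0.019, adjusted p = 0.2003). Leaving out 1 library at a time moved the second value over -0.28 to -0.047, and without KO LPS replicate 1 it was called (-0.28, adjusted p = 0.0243). LPS raised it by 0.58 ± 0.08 in KO cells (adjusted p = 1.93e-06) and by 0.42 ± 0.08 in WT cells (adjusted p = 5.86e-05). The rise in WT cells was 0.13 and not called with library size alone (adjusted p = 0.147). KO LPS BMS cells had 0.86 ± 0.08 log2 units more IL18 than KO LPS cells (adjusted p = 2.38e-08) and 1.44 ± 0.08 more than KO cells (adjusted p = 2.46e-13), so the agonists of IL1R1 and IL18 moved in opposite directions with the compound.

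IL18BP, the soluble inhibitor of IL-18, fell with LPS and was higher with the compound. Its levels were 30.6 and 33.0 CPM in KO LPS BMS cells, 22.1 and 24.1 CPM in KO LPS cells, 16.0 and 16.2 CPM in WT LPS cells, 34.8, 33.7 and 32.9 CPM in KO cells and 27.4, 31.3 and 30.8 CPM in WT cells. WT LPS libraries were the lowest, and KO LPS BMS libraries overlapped the KO libraries. The LPS change was -0.55 ± 0.09 log2 units in KO cells (adjusted p = 2.10e-05) and -0.89 ± 0.09 in WT cells (adjusted p = 2.39e-08), and IL18BP was 0.52 ± 0.10 higher in KO LPS than in WT LPS cells (adjusted p = 0.000552). The difference between the 2 LPS changes was 0.34 ± 0.13 and was not called (95% interval 0.092 to 0.59, adjusted p = 0.0861), but it was called without WT replicate 1 (0.40, adjusted p = 0.0439). With the compound IL18BP was 0.46 ± 0.10 higher than in KO LPS cells (adjusted p = 0.000449) and differed by -0.086 from KO cells (-0.25 to 0.082), a difference that was -0.42 and called with library size alone (adjusted p = 0.000183). The gene shares 675 of its 4323 exon bases (15.6%) with NUMA1 on the opposite strand, and no source used here says whether counting used strand, so reads there cannot be assigned with certainty. NUMA1 changed by -0.72 ± 0.07 log2 units in KO LPS BMS vs KO LPS (adjusted p = 1.03e-08), opposite to IL18BP. It changed in the same direction as IL18BP in KO LPS vs WT LPS (0.21 ± 0.06, adjusted p = 0.0183), in KO LPS vs KO (-0.26 ± 0.06, adjusted p = 0.000847) and in WT LPS vs WT (-0.64 ± 0.06, adjusted p = 3.54e-09). NUMA1 also had a genotype by LPS interaction in the same direction as IL18BP (0.38 ± 0.08, adjusted p = 0.00368). Its part in those IL18BP results was not tested.

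The within-library ratio of IL18 to IL18BP was 3.53 and 3.53 in KO LPS BMS cells, 3.00 and 2.38 in KO LPS cells, 4.10 and 4.36 in WT LPS cells, 1.28, 1.23 and 1.19 in KO cells and 1.89, 1.56 and 1.74 in WT cells. It was lower in every KO library than in every WT library and lower in both KO LPS than in both WT LPS libraries. The difference between KO and WT cells was -0.49 on the log2 scale, with p = 0.1 in an exact 2-sided permutation test, the smallest that 3 against 3 libraries can give (0.4 after adjustment over 24 tests).

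The signalling receptor IL1R1 was low, did not pass the test with LPS or the knockout, and fell with the compound. IL1R1 had 3.62 and 3.60 CPM in KO LPS BMS cells (46 and 56 counts in those libraries), 9.74 and 6.98 CPM in KO LPS cells, 7.24 and 8.44 CPM in WT LPS cells, 8.97, 9.23 and 9.14 CPM in KO cells and 8.81, 8.85 and 8.55 CPM in WT cells. Only the compound's pair stood apart from the rest. Its log2 fold change was -1.21 ± 0.19 in KO LPS BMS vs KO LPS (adjusted p = 1.37e-05) and -1.33 ± 0.17 in KO LPS BMS vs KO (adjusted p = 5.17e-07). The LPS change was -0.12 in KO cells (95% interval -0.40 to 0.16) and -0.15 in WT cells (-0.44 to 0.13), and the KO vs WT difference was 0.061 (-0.18 to 0.30). With library size alone the LPS changes were called, at -0.37 in KO cells (adjusted p = 0.0354) and -0.44 in WT cells (adjusted p = 0.0115). By CPM per kilobase, IL1R1 had rank 12604 of 15966 in KO LPS BMS cells and ranks 10874 to 11013 in the other groups.

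The decoy IL1R2 was near the detection limit, with 7 to 28 counts a library. It had 1.497 and 1.22 CPM in KO LPS BMS cells, 1.42 and 0.821 CPM in KO LPS cells, 0.465 and 0.625 CPM in WT LPS cells, 1.36, 1.57 and 0.967 CPM in KO cells and 0.432, 0.669 and 0.515 CPM in WT cells. Every library with the knockout was above every WT library, with and without LPS. IL1R2 was 1.25 ± 0.34 log2 units higher in KO than in WT cells (adjusted p = 0.0110), a call that was lost without KO replicate 2 (1.08, adjusted p = 0.0698) or without WT replicate 1 (1.12, adjusted p = 0.0504). Between KO LPS and WT LPS cells it was 1.03 ± 0.46 higher, which was not called (95% interval 0.13 to 1.93, adjusted p = 0.0959). Its change with the compound was 0.26 relative to KO LPS cells (-0.52 to 1.04), and its LPS change was -0.20 in KO cells (-0.89 to 0.50) and 0.019 in WT cells (-0.89 to 0.93). With 0.25 CPM added to both genes, the ratio of IL1R2 to IL1R1 was 0.451 and 0.382 in KO LPS BMS cells, 0.167 and 0.148 in KO LPS cells, 0.0954 and 0.101 in WT LPS cells, 0.174, 0.192 and 0.130 in KO cells and 0.0753, 0.101 and 0.0869 in WT cells. This ratio is raised by the added 0.25 CPM, most where IL1R2 is lowest. It was highest in the compound's pair (1.40 log2 units above KO LPS, exact permutation p = 0.333333, the smallest possible).

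IL1RAP, the accessory protein shared by the receptors for IL-1, IL-33 and IL-36, was the most abundant receptor gene of the set per kilobase and the only one of the 8 for which the genotype by LPS interaction was called. It had 134 and 139 CPM in KO LPS BMS cells, 177 and 161 CPM in KO LPS cells, 193 and 210.2 CPM in WT LPS cells, 109, 107 and 109.7 CPM in KO cells and 99.7, 98.4 and 92.9 CPM in WT cells. The 5 groups did not overlap, and KO libraries were above WT libraries without LPS and below them with LPS. LPS raised IL1RAP by 0.64 ± 0.06 log2 units in KO cells (adjusted p = 9.57e-09) and by 1.05 ± 0.06 in WT cells (adjusted p = 9.04e-13), and the difference of the 2 changes was -0.42 ± 0.09 (adjusted p = 0.00259; 5.96e-05 to 0.0196 over 18 alternatives). The change in KO LPS vs WT LPS was -0.25 ± 0.07 (adjusted p = 0.00580), a call that was lost with only those 2 groups in the fit (adjusted p = 0.0751), without KO LPS replicate 2 (0.0915) or without WT LPS replicate 2 (0.0800). The KO vs WT rise of 0.16 ± 0.05 (adjusted p = 0.0363) was lost in 10 of 18 alternatives. With the compound IL1RAP changed by -0.31 ± 0.07 relative to KO LPS cells (adjusted p = 0.000602), with 46.0% of the LPS-induced rise left (37.2% to 57.6%). It was 0.33 ± 0.06 above KO cells (adjusted p = 7.09e-05), a difference that became -0.0073 with library size alone. IL1RAP shares 535 exon bases (4.63%) with AC108747.1 on the same strand.

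**Figure D3:**
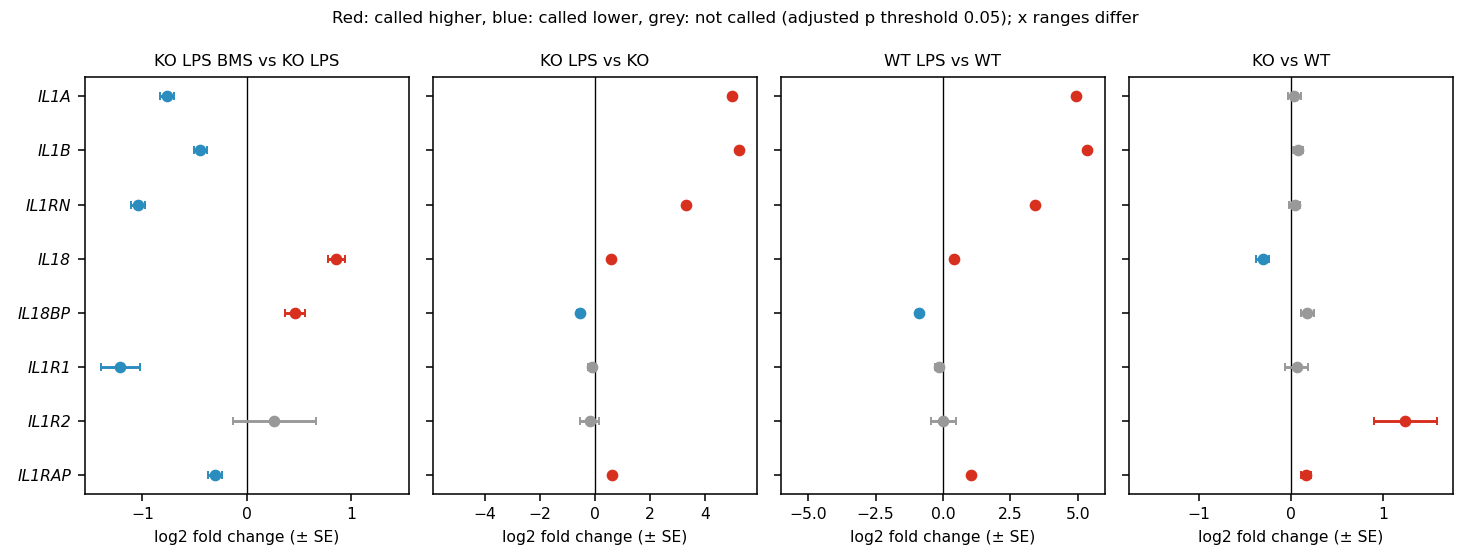
Log2 fold change of each gene (± SE derived from edgeR's F test) in 4 comparisons, with called genes in color and the x range set per panel. The compound lowered IL1A, IL1B, IL1RN, IL1R1 and IL1RAP and raised IL18 and IL18BP, LPS raised 5 genes and lowered IL18BP in each genotype, and KO vs WT called IL18, IL1R2 and IL1RAP.

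Counted over the set, KO LPS BMS vs KO LPS called 2 genes higher and 5 lower of 8, where 47.8% of all tested genes were called, 22.3% higher and 25.5% lower. The groups did not overlap for 7 of the 8, against 70.4% of all genes. The median log2 fold change of the 8 was -0.38, beside -0.036 over all genes. KO LPS vs KO called 5 higher and 1 lower, where 44.8% of genes were called (24.5% higher, 20.3% lower), and 6 did not overlap (all genes, 62%), with a median of 0.61 beside -0.0041 for all genes. WT LPS vs WT also called 5 higher and 1 lower, where 59.7% of genes were called (28.9% higher, 30.8% lower), and 7 did not overlap (all genes, 72.3%), with medians of 0.74 and -0.072 over all genes. The set is too small for its counts to be set apart from these shares, and no test of a count was made. KO vs WT called 3 of 8, with 2 higher and 1 lower, where 21.6% of genes were called (10.2% higher, 11.4% lower), and 5 did not overlap (all genes, 40.4%). Without KO replicate 2 that count was 1. KO LPS vs WT LPS called 1 higher and 1 lower, where 30.6% of genes were called (15.6% higher, 15% lower), with 3 that did not overlap (all genes, 59.9%). The interaction called 1 gene, lower, where 12% of genes were called (6.42% higher, 5.57% lower). KO LPS BMS vs KO called 5 higher and 1 lower, where 62.7% of genes were called (30.3% higher, 32.4% lower), and 6 did not overlap (all genes, 76.2%). KO LPS BMS vs KO LPS, KO LPS vs KO and KO LPS vs WT LPS share the KO LPS libraries, and the comparisons are not independent of each other.

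Markers of other cells moved with some of these contrasts. The 8 monocyte markers, all with counts in every group, summed to 2600 to 2709 CPM in KO LPS BMS, 2376 to 2542 in KO LPS, 2123 to 2157 in WT LPS, 2063 to 2212 in KO and 1503 to 1702 in WT cells. LYZ carried most of these sums, with 2099 to 2157 CPM in KO LPS BMS and 1331 to 1476 CPM in KO LPS cells. S100A8, S100A9, S100A12, VCAN and CCR2 went against the sum and were lower in both KO LPS BMS than in both KO LPS libraries, with means of 287 CPM in KO LPS BMS and 602 CPM in KO LPS cells for S100A9. CCR2 and FCN1 also went against the sum in KO vs WT, with CCR2 at a mean of 38.8 CPM in KO and 53.5 CPM in WT cells. The 8 neutrophil markers summed to 188 to 194 CPM in KO cells (7 with counts) and 122 to 126 CPM in WT cells (6 with counts), with ELANE at 0 in both. PRTN3 was at 0 in WT and had at most 1 count a library in KO cells. CSF3R carried most of these sums, with means of 157 CPM in KO and 96.9 CPM in WT cells. FCGR3B and MMP8 were also higher in all KO libraries. CXCR2, MPO and CEACAM8 overlapped between the groups and had lower means in KO cells. KO vs WT is the contrast in which IL18 was lower and IL1R2 and IL1RAP were higher, and the part of these markers in it was not tested. The 6 endothelial markers summed to 469 to 476 CPM in KO LPS BMS cells and 307 to 343 CPM in KO LPS cells, the contrast in which IL1R1 fell. PECAM1 alone held 464 to 471 CPM in KO LPS BMS cells and 302 to 338 CPM in KO LPS cells, and CLDN5 was at 0 in both groups. The 8 fibroblast markers summed to 21.0 to 23.3 CPM in KO LPS BMS cells and 18.6 to 24.8 CPM in KO LPS cells. Within these lists CDH5, PDGFRA and PDGFRB were lower in both KO LPS BMS than in both KO LPS libraries. PDGFRB averaged 0.941 CPM in KO LPS BMS and 2.29 CPM in KO LPS cells. PECAM1, KDR, TEK and COL1A1 were higher in both KO LPS BMS libraries. The part of these markers in the IL1R1 result was not tested.

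Of 7 other ligand genes, IL33 and IL36G passed the filter, and each had no counts in the WT libraries. Each passed only through the groups in which it was higher. Their p-values are therefore not independent of the filter and are given as a description. IL33, an alarm cytokine of the nucleus, had 0.968, 1.06 and 1.18 CPM in KO cells and 0 counts in all 3 WT libraries, so it was at least 6.82-fold higher in KO cells against a floor of 3 counts per library (adjusted p = 2.23e-05). In the same contrast the 8 fibroblast markers summed to 18.3 to 60.4 CPM in KO cells and 10.48 to 27.2 CPM in WT cells, and the endothelial marker CDH5 had 3.47 to 4.25 CPM in KO cells and 0.703 to 1.90 CPM in WT cells. Their part in the IL33 result was not tested. With LPS, IL33 had 1.16 and 0.547 CPM (18 and 8 counts) in KO LPS cells and 0.133 and 0.0625 CPM (2 and 1 counts) in WT LPS cells (adjusted p = 0.00993; 0.0922 without KO LPS replicate 1 and 0.0921 without WT LPS replicate 2). With the compound its libraries differed, at 0.158 and 0.966 CPM (2 and 15 counts). IL36G, a ligand of the IL-36 receptor, had 0 counts in all WT libraries and 1 count in 1 KO library, and 0.997 to 1.31 CPM in the 6 LPS libraries. It was at least 7.36-fold higher in WT LPS than in WT cells (adjusted p = 8.02e-07). IL36A, IL36B, IL36RN, IL37, IL1F10, IL1RL2, IL1RAPL1 and IL1RAPL2 did not pass the filter.

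Of the other receptors, IL18R1, the ligand-binding chain for IL-18, rose with LPS in both genotypes and reached a lower level in KO LPS than in WT LPS cells. IL18R1 had 41.8 and 42.2 CPM in KO LPS BMS cells, 40.5 and 41.4 CPM in KO LPS cells, 56.7 and 59.2 CPM in WT LPS cells, 12.3, 11.0 and 11.6 CPM in KO cells and 15.6, 13.5 and 11.9 CPM in WT cells. The WT LPS pair was the highest. It rose by 1.81 ± 0.10 log2 units in KO cells (adjusted p = 4.26e-13) and 2.08 ± 0.09 in WT cells (adjusted p = 8.38e-15). Its change in KO LPS vs WT LPS was -0.50 ± 0.09 (adjusted p = 0.000342), and its genotype by LPS interaction was not called. IL18RAP, the accessory chain, was 0.90 ± 0.23 higher in KO than in WT cells (adjusted p = 0.00607, 0.0524 without KO replicate 3), at 2.00, 2.18 and 2.74 CPM in KO cells and 1.30, 0.926 and 1.49 CPM in WT cells. IL1RL1, the IL-33 receptor, had 40.3, 41.2 and 39.2 CPM in KO cells and 30.7, 35.2 and 29.8 CPM in WT cells (0.34 ± 0.11, adjusted p = 0.0353). That call was lost without each of 5 libraries in turn (adjusted p = 0.0732 to 0.126). The 6 mast cell markers, a cell type known for IL1RL1, summed to 561 to 568 CPM in KO cells and 452 to 456 CPM in WT cells, and all 6 had counts in both groups. Their part in the IL1RL1 result was not tested. SIGIRR, an inhibitory receptor, had 8.24 and 5.75 CPM in WT LPS cells and 16.9, 17.6 and 18.3 CPM in WT cells (-1.33 ± 0.28, adjusted p = 0.00246). Its LPS change in KO cells was not called, with 8.13 to 15.5 CPM in KO LPS and 15.1 to 18.6 CPM in KO cells, which overlapped. In KO LPS BMS vs KO LPS the 6 genes changed by -0.53 (IL33, 95% interval -1.71 to 0.65) to 0.25 (IL1RL1, 0.011 to 0.49), and IL1RL1 had the lowest adjusted p of them (0.108). IL18R1 differed by 0.037 there (-0.15 to 0.23).

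**Figure D4:**
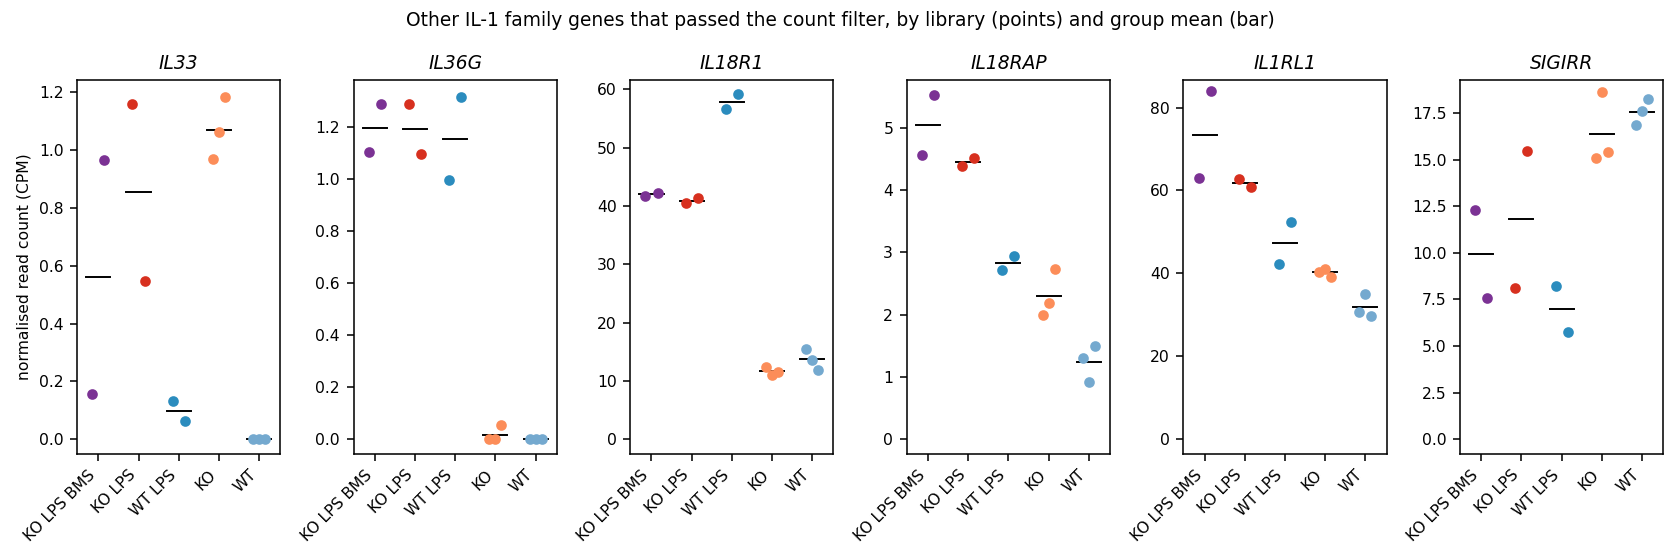
Normalised read counts (CPM, linear axes) of the 6 other IL-1 family genes that passed the filter in each of the 12 libraries, with bars for group means. IL33 is at 0 in the WT libraries and near 1 CPM in the KO libraries, IL36G is seen in the 6 LPS libraries, and IL18R1 is highest in the WT LPS libraries.

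The genes of ligand processing and release changed in both directions with LPS and with the compound. Of 18 listed genes 16 passed the filter. KO LPS BMS vs KO LPS called 2 of them higher and 8 lower, with a median log2 fold change of -0.38 beside -0.036 for all genes, of which 22.3% were called higher and 25.5% lower. P2RX7, the ATP-gated channel that triggers IL-1β release, averaged 310.0 CPM in KO LPS BMS cells and 169.7 CPM in KO LPS cells (0.87 ± 0.06, adjusted p = 3.63e-10). The inflammasome sensor NLRC4 averaged 13.0 CPM in KO LPS BMS cells and 50.2 CPM in KO LPS cells (-1.96 ± 0.09, adjusted p = 4.28e-13), and CASP8 averaged 26.3 CPM in KO LPS BMS cells and 52.6 CPM in KO LPS cells (-1.001 ± 0.08, adjusted p = 5.79e-10). The sensor NLRP3 was 0.16 ± 0.06 higher with the compound (adjusted p = 0.0404), a call lost in 11 of 18 alternatives, among them library size alone (0.071, adjusted p = 0.390). LPS called 9 higher and 4 lower in KO cells (all genes, 24.5% and 20.3%), and 9 higher and 6 lower in WT cells (all genes, 28.9% and 30.8%). With library size alone these counts were 7 higher and 6 lower in KO cells, and 8 higher and 7 lower in WT cells. CASP5, a caspase that senses intracellular LPS, averaged 76.7 CPM in WT LPS cells and 3.30 CPM in WT cells (4.54 ± 0.13, adjusted p = 2.64e-18), and the sensor NLRP1 averaged 25.6 CPM in WT LPS cells and 69.2 CPM in WT cells (-1.44 ± 0.08, adjusted p = 1.14e-12).

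For several of these genes, as for IL1RAP, the LPS response differed between genotypes. Of the 16, the interaction called 2 higher and 5 lower, where 6.42% of all genes were called higher and 5.57% lower. Without WT LPS replicate 1 the counts were 5 and 5. CASP1, which cleaves the IL-1β and IL-18 precursors, averaged 243 CPM in KO LPS cells and 339 CPM in WT LPS cells (-0.48 ± 0.06, adjusted p = 2.00e-06), with an interaction of -0.59 ± 0.08 (adjusted p = 2.18e-05). CASP5 averaged 41.1 CPM in KO LPS cells and 76.7 CPM in WT LPS cells (-0.90 ± 0.11, adjusted p = 2.53e-06; interaction -1.33 ± 0.20, adjusted p = 0.000104). NLRP1 went the other way, at 45.3 CPM in KO LPS cells and 25.6 CPM in WT LPS cells (0.82 ± 0.09, adjusted p = 5.09e-07; interaction 0.92 ± 0.11, adjusted p = 1.02e-05). KO vs WT called 2 of the 16 higher and 3 lower (all genes, 10.2% and 11.4%), among them MEFV, encoding pyrin, at 2.08 CPM in KO cells and 0.922 CPM in WT cells (1.17 ± 0.24, adjusted p = 0.000944), and NLRC4 at 67.1 CPM in KO cells and 86.8 CPM in WT cells (-0.37 ± 0.06, adjusted p = 6.87e-05).

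Of the 4 genes listed for shedding of the decoy receptor, KO LPS BMS vs KO LPS called 3 higher and not the fourth, BACE1, where 22.3% of all genes were called higher. ADAM17, the protease that releases many membrane cytokines and receptors, averaged 219 CPM in KO LPS BMS cells and 121 CPM in KO LPS cells (0.85 ± 0.07, adjusted p = 2.04e-09). BACE2 averaged 57.4 CPM in KO LPS BMS cells and 44.4 CPM in KO LPS cells (0.37 ± 0.08, adjusted p = 0.000578). LPS raised ADAM17 and lowered BACE1 in both genotypes, with changes of 1.13 ± 0.07 for ADAM17 and -1.27 ± 0.08 for BACE1 in KO cells (adjusted p = 1.92e-12 and 4.23e-12).

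Among 14 receptor signalling genes, the compound called 5 higher and 4 lower against KO LPS cells, where 22.3% of all genes were called higher and 25.5% lower. IRAK2, a kinase that sustains the signal, averaged 237 CPM in KO LPS BMS cells and 90.7 CPM in KO LPS cells (1.39 ± 0.07, adjusted p = 1.08e-12), and TAB2 averaged 526 CPM in KO LPS BMS cells and 268 CPM in KO LPS cells (0.97 ± 0.06, adjusted p = 7.88e-11). The first kinase of the chain, IRAK4, averaged 8.11 CPM in KO LPS BMS cells and 15.5 CPM in KO LPS cells (-0.93 ± 0.12, adjusted p = 2.21e-06), and the adaptor MYD88 averaged 188 CPM in KO LPS BMS cells and 250.2 CPM in KO LPS cells (-0.41 ± 0.06, adjusted p = 1.05e-05). LPS called 8 higher and 3 lower in each genotype, where 24.5% and 20.3% of all genes were called in KO cells and 28.9% and 30.8% in WT cells. The counts were 5 and 3 in KO cells and 6 and 6 in WT cells with library size alone. The response was led by IRAK2 (2.99 ± 0.07 in KO cells and 3.15 ± 0.08 in WT cells, adjusted p = 6.26e-19 and 2.85e-19). The ubiquitin ligase PELI1 rose less in KO cells, averaging 171 CPM in KO LPS cells and 261 CPM in WT LPS cells (interaction -0.90 ± 0.09, adjusted p = 6.01e-07). KO vs WT called 3 higher and 2 lower (all genes, 10.2% and 11.4%), with IRAK4 at 14.2 CPM in KO cells and 24.6 CPM in WT cells (-0.79 ± 0.09, adjusted p = 3.12e-07).

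**Figure D5:**
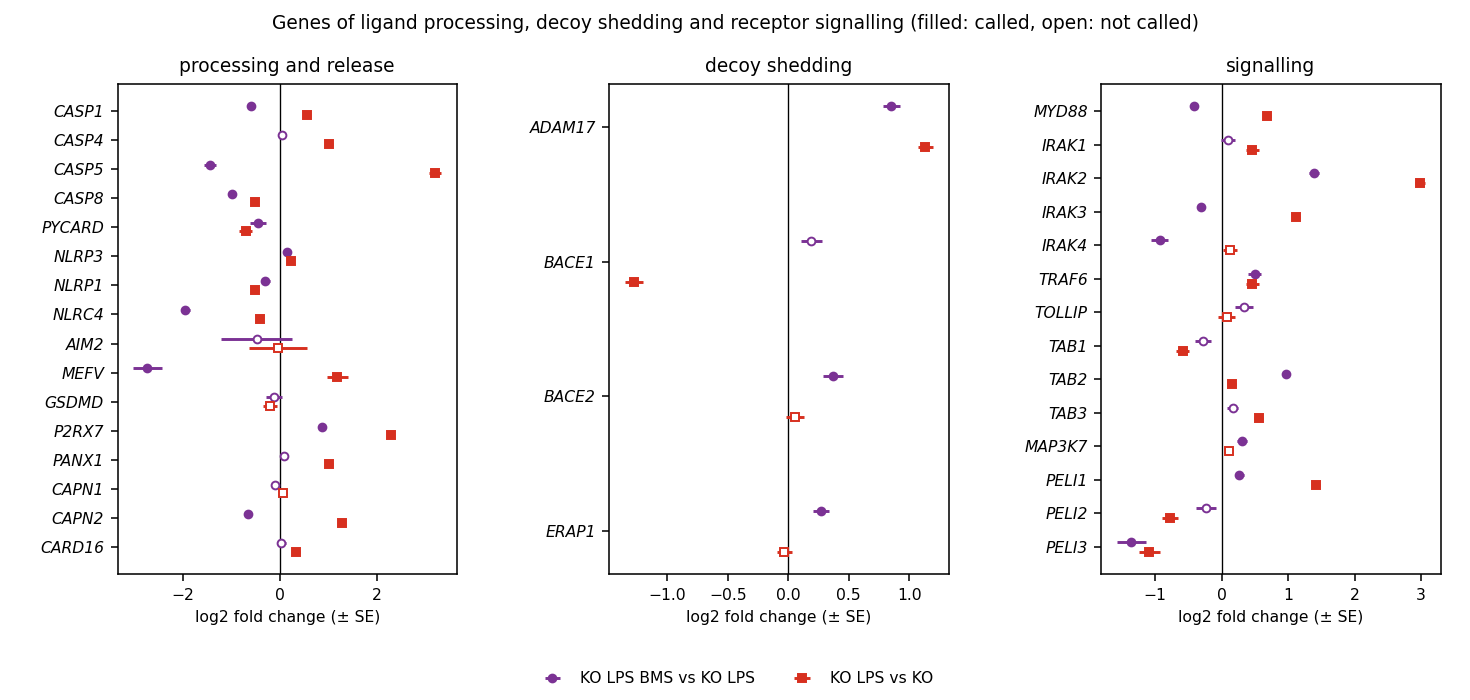
Log2 fold change (± SE) of the tested genes of ligand processing and release, decoy shedding and receptor signalling, for KO LPS BMS vs KO LPS (circles) and KO LPS vs KO (squares), filled where called. IRAK2 lies at 1.39 in KO LPS BMS vs KO LPS and at 2.99 in KO LPS vs KO, and the 2 comparisons share the KO LPS libraries.

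The 8 genes differed in their pattern over the groups. Likeness was measured as the root mean square difference between centred log2 group means over the 5 groups, among 10503 genes with a mean of at least 5 CPM. The log2 values used a prior count of 2, which shrinks differences for genes with few counts, such as IL1R2. IL1A and IL1B differed by 0.23, whereas IL1RN differed by 0.85 from IL1A and by 1.07 from IL1B. The genes most like IL1A were AK4 (0.12), a mitochondrial adenylate kinase, and SOD2 (0.15), mitochondrial superoxide dismutase, and SOD2 was also next to IL1B (0.20) after CCL4L2 (0.17), a chemokine gene whose reads may be shared with near-identical copies. SOD2 averaged 6687 CPM in KO LPS BMS cells, 10391 CPM in KO LPS cells, 12643 CPM in WT LPS cells, 309 CPM in KO cells and 336 CPM in WT cells. Nearest to IL1RN were MMP1 and LIMK2 (0.14 each), and LIMK2, an actin-regulating kinase, averaged 163 CPM in KO LPS BMS cells, against 326 CPM in KO LPS cells and 327 CPM in WT LPS cells. IL18 lay closest to AGPAT4 (0.02) and KIAA0232 (0.06), IL18BP to SLC7A6OS and GALNT2 (0.04 each), and IL1RAP to EXOC5 and TAF1A (0.04 each). IL1R1 lay closest to MAP3K6 (0.02), which averaged 5.52 CPM in KO LPS BMS cells and 12.6 CPM in KO LPS cells, and to LXN (0.04). IL1R2 lay closest to RNASE2 (0.08), a secreted ribonuclease of granulocytes, which averaged 52.8 CPM in KO cells and 29.01 CPM in WT cells, and to CLU (0.10).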

How the data were processed

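RNA of 12 libraries was extracted with TRIzol and prepared with a NEBNext Ultra kit, per the labels. The values deposited by the authors are unnormalised counts of reads per gene ID, and the total per library was 13888283 to 17639136. CASAVA 1.7, Cufflinks and GRCh38 are named in the submitters' processing notes; the aligner, read counter, strand setting and annotation release are named in no source used here. Groups and replicate numbers came from the titles. Symbols and positions were available for 57388 of 57992 IDs (GENCODE release 29), and 24552 IDs had no count.

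The filter was filterByExpr, given the 5 groups (16022 genes). The 12 libraries entered 1 fit with a mean for each group in edgeR 4.0.16 under R 4.3.3 (TMM factors of 0.872 to 1.117, robust quasi-likelihood, common biological coefficient of variation 0.0635), with 2-sided tests, Benjamini-Hochberg adjustment over all genes and a threshold of 0.05, in 7 comparisons. The script was also tested on simulated data. Intervals of 95% are the log2 fold change with its SE and a normal quantile. They are not adjusted over genes, so their reading can differ from the call. The spread behind groups of 2 libraries is pooled over all 12. Ratios used exact permutation tests (scipy 1.17.1). Named genes were the 8 in every comparison, every other family gene past the filter, the 2 called genes with the lowest adjusted p per direction, pathway list and comparison, and the 2 genes most like each of the 8; the text gives part of them. The members, lists and rules were chosen with earlier results of these data known. Alternatives were library size alone, DESeq2 1.42.0 (size factors and Wald test), no filter, only the groups compared, the replicate number as a block, and leaving out each library.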

Additional observations from a re-analysis of the deposited data

Results flagged for a closer look

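The LPS response of IL1RAP differed between genotypes by a test of the difference itself. The rise was 0.64 ± 0.06 log2 units in KO cells (KO LPS vs KO) and 1.05 ± 0.06 in WT cells (WT LPS vs WT), a difference of -0.42 ± 0.09 (edgeR's quasi-likelihood test, adjusted p = 0.00259), and it was called in each of the 18 alternatives. With LPS, both KO LPS libraries (177 and 161 CPM) were below both WT LPS libraries (193 and 210.2 CPM).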

How the results depend on the processing

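The 42 counts of called genes from the 6 settings other than leaving out a library stayed within 1.5 times the main count in 41 cases. The exception was KO LPS vs WT LPS, which called 1 of the 8 genes with only the groups compared, against 2. Leaving out 1 library at a time gave 1 to 3 calls for KO vs WT and for KO LPS vs WT LPS, and 1 to 2 for the interaction. Signs turned in values that did not pass the test, with 1 exception: IL1RAP in KO LPS BMS vs KO was -0.0073 with library size alone. With that setting IL1R2 was -0.26 in WT LPS vs WT and -0.27 in KO LPS BMS vs KO, and in KO LPS vs WT LPS IL1B was 0.022 and IL1RN 0.013. The IL1R1 interaction was -0.0098 with DESeq2's size factors, -0.0098 with its Wald test and -0.0157 with only the groups compared. With 1 CPM added, the log2 ratio of IL1A to IL1RN was -0.00052 in KO vs WT and that of IL1R2 to IL1R1 was 0.0064 in KO LPS vs KO. Deviations of libraries that share a replicate number correlated at -0.14 to 0.10. In groups of 2 libraries the deviations mirror each other, so these values do not settle whether the number marks a shared batch. With the replicate block, IL1R2 was -0.063 in KO LPS BMS vs KO and -0.11 in WT LPS vs WT, and the KO vs WT call of IL1RAP was lost (adjusted p = 0.0610). Leaving out libraries gave ranges that cross 0 as follows. IL1R2 ranged over -0.072 to 0.75 in KO LPS BMS vs KO LPS, -0.12 to 0.23 in KO LPS BMS vs KO, -0.68 to 0.14 in KO LPS vs KO, -0.21 to 0.21 in WT LPS vs WT and -0.70 to 0.12 in the interaction. IL1R1 ranged over -0.42 to 0.099 in KO LPS vs KO, -0.20 to 0.31 in KO LPS vs WT LPS and -0.26 to 0.25 in the interaction. IL1A ranged over -0.032 to 0.093 in KO vs WT and -0.037 to 0.13 in the interaction, IL1RN over -0.12 to 0.063 in KO LPS vs WT LPS and -0.15 to 0.030 in the interaction, and IL1B over -0.064 to 0.021 in KO LPS vs WT LPS. The log2 ratio of IL1B to IL1RN ranged over -0.029 to 0.093 in KO vs WT and -0.042 to 0.055 in KO LPS vs WT LPS, that of IL1A to IL1RN over -0.032 to 0.043 and -0.027 to 0.27 in these comparisons, and that of IL1R2 to IL1R1 over -0.22 to 0.066 in KO LPS vs KO. Without 1 library a group of 2 has a lone sample, assumed to vary like the other groups. Causes were not tested. Depth limits IL1R2, IL33 and IL36G, with at most 28, 22 and 21 counts a library.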
